A study of Mus musculus with 12 samples.

Results

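The subunits of the mitochondrial respiratory chain and ATP synthase were taken as all genes on the array whose symbols begin Ndufa, Ndufb, Ndufc, Ndufs or Ndufv followed by a digit, Uqcr, Cox4 to Cox8 or Atp5, together with Sdha, Sdhb, Sdhc and Sdhd. This rule found 72 genes, each with 1 probe set, among 15780 named probe sets. They comprised 5 core and 27 accessory subunits of complex I, 4 subunits of complex II, 6 of complex III, 18 genes assigned to complex IV and 12 to complex V. Some other nuclear-encoded subunits were not analysed here.

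The respiratory chain sits in the inner mitochondrial membrane. Complex I takes electrons from NADH and complex II takes them from succinate, complex III passes them on to cytochrome c, and complex IV hands them to oxygen. Complexes I, III and IV pump protons, and complex V, the ATP synthase, uses the resulting gradient to make ATP. Hepatocytes depend on this chain for the ATP and the NAD+ that gluconeogenesis, urea synthesis and fatty acid oxidation require. All genes described here are encoded in the nucleus, translated in the cytosol and imported, so their mRNAs are open to the cytosolic deadenylation machinery.

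CNOT6L is a deadenylase subunit of CCR4-NOT, the complex that shortens the poly(A) tails of mRNAs. Primary hepatocytes of male C57BL/6J mice aged 8 weeks were either wild type (WT) or Cnot6l knockout (KO), and every cell preparation was split between RNA precipitated with an antibody to CNOT6L (IP) and total RNA (Input), with KO cells as the negative control of the precipitation. The 4 groups, WT IP, KO IP, KO Input and WT Input, had 3 arrays each, numbered 1 to 3. The labels call the replicates biological and do not otherwise say that each came from a separate animal, so the p-values measure the spread between these preparations.

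Cnot6l itself did not check the genotype labels. Its probe set read 9.12, 9.23 and 9.34 (log2) in KO Input, against 8.44, 9.51 and 9.11 in WT Input, and the sources do not say if the probes target deleted sequence. All 9 hepatocyte markers were above the level filter on these arrays. Of 9 Kupffer cell markers, 8 lay below the filter. Above it were 5 of 9 sinusoidal endothelial, 4 of 9 stellate, 2 of 5 cholangiocyte and 2 of 5 blood cell markers. The summed level of the stellate cell markers ranged from 8.49 to 11.01 (log2) over the inputs, so the preparations were not alike in it. The array medians lay between 6.31 and 6.45. Added poly-A control transcripts exceeded their matched Input by 5.11 on average in the IPs (4.47 to 5.99). The Gapdh signal gap between the ends of the transcript was wider in each IP by 0.85 to 1.95. The SD of the values within an array, taken as IP minus Input, was -0.35 to -0.17, so each IP array was spread less widely. These differences go with the fraction in both genotypes, and their part in the differences below was not tested.

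Of the 72 subunit genes, 67 reached the level filter of 5.57 (log2, mean of the 12 arrays) and were tested among 9496 genes. The others were Atp5g1, which encodes the membrane-embedded subunit c of ATP synthase, and the complex IV isoforms Cox4i2, Cox6b2, Cox7a1 and Cox7b2. Just inside the filter was Cox8b, a heart and muscle isoform of complex IV, which passed through its IP values and stood below 5.57 on average in both inputs, at 5.22 in KO Input and 5.37 in WT Input. Just outside it was Cox7a1, another muscle isoform, with a mean of 5.54. The tested subunit genes stood high: 63 of 67 were also above the 80th percentile of all probe sets, 8.88. Some subunit genes have close copies or isoforms elsewhere in the genome, and signal from such copies cannot be told apart here.

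Promoters were read to see what the subunit genes share beyond their names. RefSeq promoter sequences of GRCm38.p6, from 250 bases before to 50 bases after the start, were matched for 58 of the 72 genes. They were searched on both strands for GCGCATGCGC, a palindromic site of NRF1, and for CCGGAAG, the core site of GABPA. Both factors are known regulators of nuclear genes for mitochondrial proteins. Some genes have several promoters, and a gene was counted once if any of them held the motif. The NRF1 letters occurred for 4 of 58 subunit genes (6.90%), against 290 of 27025 genes in the table (1.07%). The GABPA letters occurred for 12 (20.7%), against 9.93% of all genes, and either motif in 14 (24.1%), against 10.8%. The 27025 genes were not limited to those on the array or above the level filter. The 4 promoters with the NRF1 letters are shown. They belong to genes of complexes I, III, IV and V. No matched complex II promoter held these letters, and most of the 58 genes lacked them. Capitals mark GCGCATGCGC and, in Atp5k and Cox6a1, the GABPA core read on the opposite strand, and the motifs do not overlap. A match describes these letters and not binding.
Atp5k (GRCm38.p6 chr5:108434350-108434649, minus strand): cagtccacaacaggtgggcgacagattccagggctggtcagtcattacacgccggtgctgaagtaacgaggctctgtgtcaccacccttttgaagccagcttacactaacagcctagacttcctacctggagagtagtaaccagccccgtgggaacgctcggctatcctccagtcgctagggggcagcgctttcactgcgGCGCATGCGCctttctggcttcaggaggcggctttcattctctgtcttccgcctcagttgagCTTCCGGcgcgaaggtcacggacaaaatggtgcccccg
Cox6a1 (GRCm38.p6 chr5:115348909-115349208, minus strand): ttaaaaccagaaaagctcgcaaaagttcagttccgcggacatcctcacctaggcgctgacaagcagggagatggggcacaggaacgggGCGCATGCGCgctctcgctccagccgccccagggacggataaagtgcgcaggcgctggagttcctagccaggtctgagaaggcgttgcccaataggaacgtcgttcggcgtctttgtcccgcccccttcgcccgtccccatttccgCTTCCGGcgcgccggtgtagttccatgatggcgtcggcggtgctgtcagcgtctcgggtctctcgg
Ndufa11 (GRCm38.p6 chr17:56717512-56717811, plus strand): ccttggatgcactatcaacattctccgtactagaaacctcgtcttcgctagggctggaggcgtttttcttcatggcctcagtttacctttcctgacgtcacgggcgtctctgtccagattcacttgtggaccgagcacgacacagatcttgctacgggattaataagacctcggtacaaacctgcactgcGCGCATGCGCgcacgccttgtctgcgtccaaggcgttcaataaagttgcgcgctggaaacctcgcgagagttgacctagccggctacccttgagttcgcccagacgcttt
Uqcrc1 (GRCm38.p6 chr9:108936398-108936697, plus strand): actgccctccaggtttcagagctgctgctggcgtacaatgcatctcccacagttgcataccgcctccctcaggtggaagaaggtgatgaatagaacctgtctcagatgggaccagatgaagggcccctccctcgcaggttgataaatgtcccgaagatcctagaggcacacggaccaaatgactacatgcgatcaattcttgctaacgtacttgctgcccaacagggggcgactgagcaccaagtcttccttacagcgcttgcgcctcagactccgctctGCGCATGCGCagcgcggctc

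The first comparison asked which subunit mRNAs differed in level between the precipitate and the input. Most were lower in the IP in both genotypes. In WT, 57 of 67 subunit genes (85.1%) had a lower mean in IP than in Input, against 58.4% of all genes tested. The median difference was -0.47 (log2, range -1.18 to 0.94), against a median of -0.11 over all genes tested. In KO, 53 of 67 (79.1%) were lower in IP, against 65.9% of all genes. The KO median was -0.35 (range -1.17 to 0.67), against -0.21 over all genes. Over both genotypes 56 of 67 (83.6%) were lower, against 61.3% of all genes, and the median was -0.42, against -0.15 over all genes. The medians of the subunit genes in the 6 preparations were -0.54, -0.48 and -0.33 in WT and -0.54, -0.23 and -0.15 in KO, while those of all genes stayed between -0.20 and -0.08. Genes above the 80th percentile of level, where most subunit genes stand, had a median of -0.26 in WT and -0.28 in KO. Of all such genes, 70.3% were lower in WT, 75.6% in KO and 72.1% over both genotypes. Of the 63 subunit genes at that level, 56 were lower in WT, 51 in KO and 55 over both genotypes. After quantile normalization the median of all genes over both genotypes was -0.04 and that of the subunit genes -0.26. Below 0 were 50 of 67, against 52.9% of all genes. In KO alone the subunit median was then -0.17, with 47 of 67 below 0, against 53.5% of all genes.

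**Figure D1:**
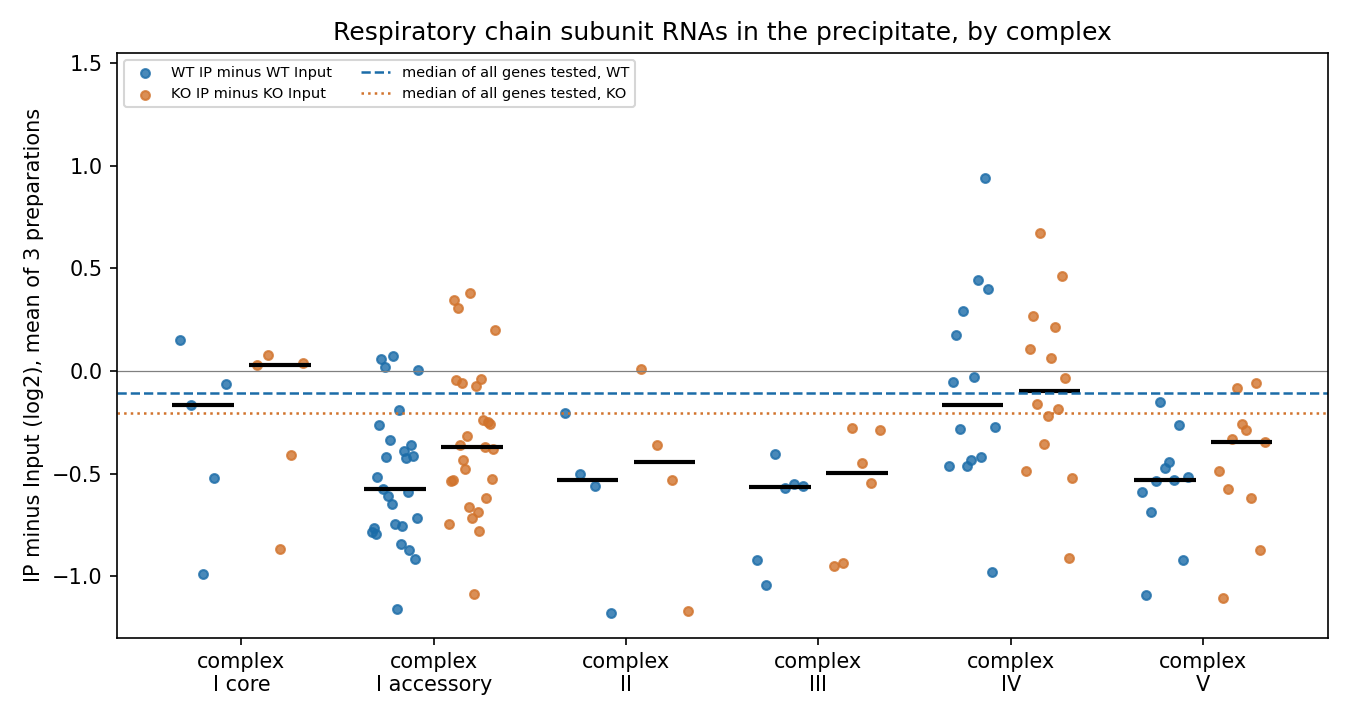
IP minus Input (log2, mean of 3 preparations) of the 67 tested subunit genes by complex. Each point is 1 gene, with WT to the left of KO, thick bars mark the median of each set, and dashed and dotted lines mark the medians of all tested genes in WT (-0.11) and KO (-0.21). The medians of complexes II, III and V and of the accessory subunits of complex I lie below these lines, while the genes of complex IV spread on both sides of 0.

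With the group means alone in limma, no subunit gene passed an adjusted p of 0.05, against 1.81% of all genes that passed as lower over both genotypes. At an unadjusted p under 0.05, 26 of 67 (38.8%) were lower, against 14.7% of all genes. With each preparation as a block, which sets every IP against its own Input, 25 of 67 (37.3%) were lower, against 19.7% of all genes. None was higher in that blocked fit, against 6.57% of all genes, and the smallest unblocked adjusted p of any subunit gene was 0.0609. The 25 genes had differences of -1.18 to -0.43, which is 44.3% to 74.2% of the Input level. Without blocks, 37 of 67 (55.2%) were lower in IP than in their own Input in 6 of 6 preparations, against 23.3% of all genes. One gene, Cox7a2l, was higher in all 6 (1.49%), against 6.54% of all genes.

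The count depended on level, on scaling, on single replicate numbers and on how the preparations were counted. Among genes above the 80th percentile, 34 of 63 subunit genes (54.0%) were called lower with the block, against 34.5% of all such genes. Of the same 63, 37 (58.7%) were lower in all 6 preparations, against 35.2% of all such genes. After quantile normalization 10 of 67 (14.9%) were called, against 10.3% of all genes. Without the arrays of number 1, the blocked fit called 11 of 67 lower (16.4%), against 13.6% of all genes. It called 3 of 67 higher, against 3.93% of all genes. Without those of number 2 it called none, against 0% of all genes. Without those of number 3 it called 2 lower (2.99%), against 4.60% of all genes. WT and KO preparations of the same number deviated together, with correlations across genes of 0.356 to 0.530, so the 6 preparations are not independent. With the genotypes averaged within each number, which leaves 3 differences, 5 of 67 (7.46%) were called lower, against 7.76% of all genes, so at that count the share of subunit genes was near the background. The 5 were Ndufb2, Atp5b, Ndufs8, Sdhd and Uqcrc1, and the other 20 genes called with the preparation block lost the call there, with adjusted p of 0.0517 to 0.185.

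Within each genotype alone fewer genes were called. No subunit gene passed without a block in WT, against 0.105% of all genes, or in KO, against 0% of all genes. At an unadjusted p under 0.05, 13 of 67 (19.4%) were lower in WT IP than in WT Input, against 6.03% of all genes. In KO the same count was 5 of 67 (7.46%), against 8.00% of all genes. The preparation block called 4 subunit genes in WT (5.97%), against 4.61% of all genes, namely Ndufb2, Ndufa10, Ndufs8 and Atp5b. In KO it called Ndufb2 and Atp5b (2.99%), against 5.28% of all genes.

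Complex I held the largest set. Of its 27 accessory subunits, which surround the catalytic core and are needed for assembly and stability, 24 had a lower mean in IP over both genotypes (median -0.47). Of these, 12 were called with the block (44.4%), against 19.7% of all genes, and 19 were lower in all 6 preparations (70.4%), against 23.3% of all genes. Above the 80th percentile of level, where these subunits stand, 35.2% of all genes were lower in all 6 preparations. The separate fit of such genes called 34.5% of them and 34 of 63 subunit genes (54.0%) lower with the block. The share of the accessory subunits in that fit is not given here, so 44.4% and 34.5% come from different fits. Ndufb2, an accessory subunit of the membrane arm, read 10.06, 11.06 and 10.34 in WT IP, against 11.64, 11.99 and 11.32 in WT Input. In KO it read 9.84, 11.37 and 10.57 in IP, against 11.56, 12.01 and 11.47 in Input. The fractions did not overlap in either genotype, and array 1 was lowest in each IP. The difference was -1.12 ± 0.29 (SE), or 45.9% of Input, with an adjusted p of 0.0637 without and 0.00607 with the block in limma.

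Ndufa1, a small membrane-arm subunit encoded on the X chromosome, read 11.45, 11.97 and 12.02 in WT IP, against 12.39, 12.75 and 12.65 in WT Input. Its KO values were 11.22, 12.15 and 12.05 in IP, against 12.27, 12.79 and 12.60 in Input. Here too the fractions did not overlap and array 1 was the lowest of each IP. The difference was -0.77 ± 0.22, with an adjusted p of 0.0911 without and 0.00878 with the block, and 0.0517 with genotypes averaged per number. Ndufb5, another membrane-arm subunit, read 10.27, 11.22 and 10.46 in WT IP, against 11.56, 11.79 and 11.14 in WT Input. It read 10.77, 11.27 and 10.69 in KO IP, against 11.59, 11.86 and 11.34 in KO Input. Here the second WT IP array lay above the third WT Input array, so the WT fractions overlapped, and the KO fractions did not. Its difference was -0.77 ± 0.23 (adjusted p 0.0976 without and 0.0105 with the block, and 0.0534 with genotypes averaged per number).

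The other accessory subunits called with the block were Ndufb6, Ndufc1, Ndufb11, Ndufs5, Ndufa11, Ndufa9, Ndufa10, Ndufs6 and Ndufb9, with differences of -0.77 for Ndufb6 to -0.48 for Ndufb9. Among them Ndufa9, which lies at the junction of the peripheral and membrane arms, varied least, with IP minus Input of -0.64, -0.69 and -0.62 in WT and -0.54, -0.67 and -0.79 in KO. Ndufa11, whose promoter is shown above, read 63.1% of Input. All 9 calls were lost with genotypes averaged per number.

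Ndufs6, an accessory subunit that binds zinc, had one of the smallest p for WT IP against WT Input. It read 10.71, 10.49 and 10.71 in WT IP, against 11.38, 11.63 and 11.05 in WT Input, and 10.90, 10.88 and 11.07 in KO IP, against 11.31, 11.53 and 11.14 in KO Input. The fractions did not overlap in either genotype. The WT difference was -0.72 ± 0.26 (adjusted p 0.346 without and 0.0892 with the block). Ndufa2, an accessory subunit of the peripheral arm, leaned the other way in KO, at 11.72, 12.21 and 12.13 in IP, against 11.68, 11.88 and 11.57 in Input. It read 11.40, 11.84 and 12.11 in WT IP, against 11.62, 11.96 and 11.59 in WT Input. The fractions overlapped in both genotypes, and the KO difference of 0.31 did not pass.

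The accessory subunits with means above 0 were Ndufv3 (0.10), Ndufa2 (0.18) and Ndufb10 (0.23), and none of them passed.

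The core subunits of complex I, which carry the flavin and the iron-sulfur clusters, did not move as a set: their median was -0.04 and 4 of 5 were below 0. With the block 1 of the 5 was called lower (20.0%), against 19.7% of all genes. In all 6 preparations 1 was lower (20.0%), against 23.3% of all genes. Ndufs8, which holds a pair of iron-sulfur clusters on the path to quinone, stood apart from the others. It read 10.76, 10.74 and 10.29 in WT IP, against 12.18, 11.63 and 10.96 in WT Input, and 10.92, 11.10 and 10.73 in KO IP, against 12.28, 11.87 and 11.20 in KO Input. Neither genotype's fractions overlapped, and the input values themselves spanned more than 1 unit between numbers 1 and 3. The difference was -0.93 ± 0.26, or 52.5% of Input (adjusted p 0.0828 without and 0.00905 with the block). Ndufv1, the flavin-binding subunit that oxidises NADH, differed by -0.47, and Ndufs7, Ndufv2 and Ndufs1 differed by -0.04, -0.01 and 0.09. None of these 4 passed.

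All 4 complex II genes had a mean below 0, and they differed among themselves. Sdhd, a membrane anchor that binds quinone and haem, had the lowest value of all subunit genes. It read 9.05, 10.74 and 9.10 in WT IP, against 11.05, 11.22 and 10.16 in WT Input. In KO it read 8.82, 10.79 and 9.49 in IP, against 11.02, 11.26 and 10.33 in Input. Array 2 was high in both IPs and reached into the Input range, so the fractions overlapped in both genotypes. The difference was -1.18 ± 0.40, or 44.3% of Input (adjusted p 0.133 without and 0.0165 with the block).

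The other membrane anchor, Sdhc, turned sign with the replicate number: IP minus Input was -1.14, 0.32 and -0.87 in WT and -1.25, 0.43 and -0.77 in KO, and it did not pass (adjusted p 0.151 with the block). Sdhb, the iron-sulfur subunit, was lower in all 6 preparations by -0.61 to -0.25 (difference -0.43, adjusted p 0.411 without and 0.0426 with the block, a call lost with genotypes averaged per number, at 0.185). Sdha, the flavoprotein that oxidises succinate, had a difference of -0.10, which became 0.07 after quantile normalization and passed under neither.

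Complex III was lower throughout, with 6 of 6 means below 0, a median of -0.53 and 5 of 6 genes lower in every preparation (83.3%), against 23.3% of all genes. Above the 80th percentile of level, where these genes stand, that share was 35.2% of all genes. Uqcrc1, a core subunit facing the matrix, read 11.72, 10.13 and 10.39 in WT IP, against 12.17, 11.79 and 11.41 in WT Input. Its KO values were 11.69, 10.31 and 10.92 in IP, against 12.18, 11.91 and 11.64 in Input. The first IP array lay within the Input range in each genotype, and the second was the lowest. The difference was -0.99 ± 0.32, or 50.4% of Input (adjusted p 0.115 without and 0.0130 with the block). Uqcr10, a small subunit, differed by -0.94 and Uqcrfs1, the Rieske iron-sulfur protein that takes electrons from quinol, by -0.51, and both passed with the block (adjusted p 0.0468 and 0.0293). Both calls were lost with genotypes averaged per number (adjusted p 0.0962 and 0.127). Uqcrh, Uqcrq and Uqcrc2, further subunits, differed by -0.55, -0.42 and -0.34 and did not pass.

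Of the 14 tested complex IV genes, 7 were below 0 and 7 above it, with a median of -0.10. Among those below the 80th percentile of level, Cox8b, Cox6a2 and Cox8c were above 0 and Ndufa4l2 was below it. Cox8b passed the level filter through its IP values. The block called 2 of the 14 lower (14.3%), against 19.7% of all genes. In all 6 preparations 4 were lower (28.6%), against 23.3% of all genes and 35.2% of those above the 80th percentile. Cox4i1, the ubiquitous isoform of a subunit through which ATP regulates the oxidase, read 12.67, 12.67 and 12.85 in WT IP, against 13.30, 13.07 and 13.21 in WT Input. In KO it read 12.55, 12.80 and 12.99 in IP, against 13.29, 13.19 and 13.31 in Input. The fractions did not overlap in either genotype. The difference was -0.47 ± 0.17 (adjusted p 0.144 without and 0.0376 with the block). The call was lost with genotypes averaged per number (adjusted p 0.158).

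Ndufa4, named as a complex I gene and later assigned to complex IV, differed by -0.95 (adjusted p 0.179 without and 0.0243 with the block, and 0.0648 with genotypes averaged per number). Its IP minus Input was -1.69, -0.63 and -0.62 in WT and -1.88, -0.45 and -0.41 in KO. Cox6b1 and Cox6c, at -0.41 and -0.33, were lower in all 6 preparations and did not pass. Cox5a and Cox5b, which sit on the matrix side of the oxidase, differed by 0.03 and 0.22.

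Several complex IV subunits come as isoforms of different tissues. Cox6a1, the ubiquitous form whose promoter is shown above, read 13.67, 13.70 and 13.70 in WT IP, against 13.87, 13.91 and 14.13 in WT Input. Its KO values were 13.69, 13.74 and 13.75 in IP, against 13.56, 13.94 and 14.17 in Input. The WT fractions did not overlap, the KO fractions did, and the difference of -0.22 did not pass. Cox6b1, the ubiquitous form of another subunit, read 12.75, 12.80 and 12.51 in WT IP, against 13.46, 13.09 and 12.90 in WT Input. In KO it read 12.95, 12.94 and 12.68 in IP, against 13.40, 13.24 and 12.99 in Input. Neither genotype's fractions overlapped (adjusted p 0.225 without and 0.0557 with the block). Cox7a2 read 12.42, 12.86 and 12.68 in WT IP, against 12.63, 12.88 and 12.54 in WT Input, and 12.76, 13.06 and 12.82 in KO IP, against 12.89, 12.90 and 12.66 in KO Input. Its fractions overlapped in both genotypes and its difference was 0.02. Cox8a, at 10.05, 11.39 and 10.31 in WT IP, against 10.73, 11.45 and 10.84 in WT Input, also overlapped. Its KO values were 10.02, 11.54 and 10.63 in IP, against 10.46, 11.38 and 10.91 in Input, and the difference of -0.30 did not pass.

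The alternative isoforms below the level filter were the testis-associated Cox6b2 and Cox7b2, the lung isoform Cox4i2 and the muscle isoform Cox7a1, and none of them was tested. Cox4i2 read 4.10, 4.94 and 5.52 in WT IP, against 4.27, 4.03 and 4.06 in WT Input, and 4.73, 4.61 and 4.23 in KO IP, against 4.11, 4.01 and 3.89 in KO Input. Cox6b2 read 4.21, 4.55 and 5.32 in WT IP, against 4.65, 4.21 and 4.21 in WT Input, and 6.17, 4.50 and 5.91 in KO IP, against 5.04, 4.29 and 4.26 in KO Input. Cox7a1 read 5.82, 5.22 and 5.63 in WT IP, against 5.12, 5.49 and 5.56 in WT Input, and 6.13, 6.00 and 5.80 in KO IP, against 4.60, 5.53 and 5.56 in KO Input. Cox7b2 read 4.31, 3.70 and 4.46 in WT IP, against 3.41, 3.73 and 3.75 in WT Input. In KO it read 4.42, 3.94 and 4.90 in IP, against 3.43, 3.37 and 3.65 in Input. The KO fractions of Cox4i2, Cox7a1 and Cox7b2 did not overlap, with IP the higher, and those of Cox6b2 did. Each of these isoforms, and Atp5g1 of complex V, was higher in IP in 5 of 6 preparations, with means of 0.46 to 0.73. Most tested subunit genes ran the other way. The share of all genes below the filter is not given here.

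Cox7a2l, assigned here to complex IV, was the only tested subunit gene higher in each IP than in its own Input. It read 11.09, 11.71 and 11.02 in WT IP, against 11.01, 11.14 and 10.33 in WT Input, and 11.44, 11.20 and 10.72 in KO IP, against 11.32, 11.13 and 10.26 in KO Input. The groups overlapped in both genotypes, and the difference of 0.33 ± 0.26 did not pass (adjusted p 0.501 without and 0.131 with the block).

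The heart and muscle isoforms Cox6a2 and Cox8b and the testis-associated Cox8c were dim, and their differences of 0.48, 0.70 and 0.18 did not pass. Without number 1 they were the 3 of 67 subunit genes called higher in the blocked fit, against 3.93% of all genes. Their differences there were 0.81, 1.08 and 0.68 (adjusted p 0.0462, 0.0192 and 0.0419). Cox8b passed the level filter through its IP values, so its call as higher in IP is partly set by that filter. For all 3, the first KO preparation was below 0 and the other KO preparations were above 0. Cox8b read 5.93, 6.45 and 6.54 in WT IP, against 5.35, 5.62 and 5.14 in WT Input, and the KO values were 4.72, 6.33 and 6.01 in IP, against 5.44, 5.36 and 4.87 in Input. The WT fractions did not overlap, and the KO fractions did because of the first KO IP array. Cox6a2 read 6.79, 6.70 and 6.85 in WT IP, against 6.45, 6.81 and 6.19 in WT Input, and 6.00, 7.71 and 7.63 in KO IP, against 6.68, 6.65 and 6.00 in KO Input. Cox8c read 7.56, 8.13 and 8.52 in WT IP, against 7.93, 7.48 and 7.61 in WT Input, and 6.29, 8.16 and 8.01 in KO IP, against 7.55, 7.40 and 7.61 in KO Input. Both overlapped between the fractions in each genotype.

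All 11 tested genes of complex V were below 0, with a median of -0.44, and 5 were called with the block (45.5%), against 19.7% of all genes. The separate blocked fit of genes above the 80th percentile of level called 34.5% of all such genes and 34 of 63 subunit genes (54.0%) lower. The share of complex V in that fit is not given here, so 45.5% and 34.5% come from different fits. Atp5b, the catalytic beta subunit, read 13.18, 12.00 and 11.74 in WT IP, against 13.68, 13.36 and 13.16 in WT Input. In KO it read 12.97, 12.03 and 12.18 in IP, against 13.67, 13.52 and 13.31 in Input. The first WT IP array just exceeded the lowest WT Input array, so the WT fractions overlapped, and the KO fractions did not. The difference was -1.10 ± 0.28, or 46.7% of Input (adjusted p 0.0609 without and 0.00620 with the block).

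The other F1 subunits called with the preparation block were Atp5a1, which forms the catalytic head together with beta, at -0.54, and Atp5d, of the central stalk, at -0.63. Also called were Atp5o, of the peripheral stalk, at -0.90, and Atp5k, of the membrane part, at -0.58. These 4 calls were lost with genotypes averaged per number (adjusted p 0.0747 to 0.121). Atp5g3, another gene for subunit c, read 13.01, 13.28 and 12.95 in WT IP, against 13.23, 13.38 and 13.08 in WT Input. In KO it read 13.06, 13.42 and 12.98 in IP, against 13.25, 13.35 and 13.11 in Input. The fractions overlapped in both genotypes and the difference was -0.12 (adjusted p 0.740). Atp5g1, whose protein has the same mature sequence, read at most 4.44 on any array and was not tested.

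**Figure D2:**
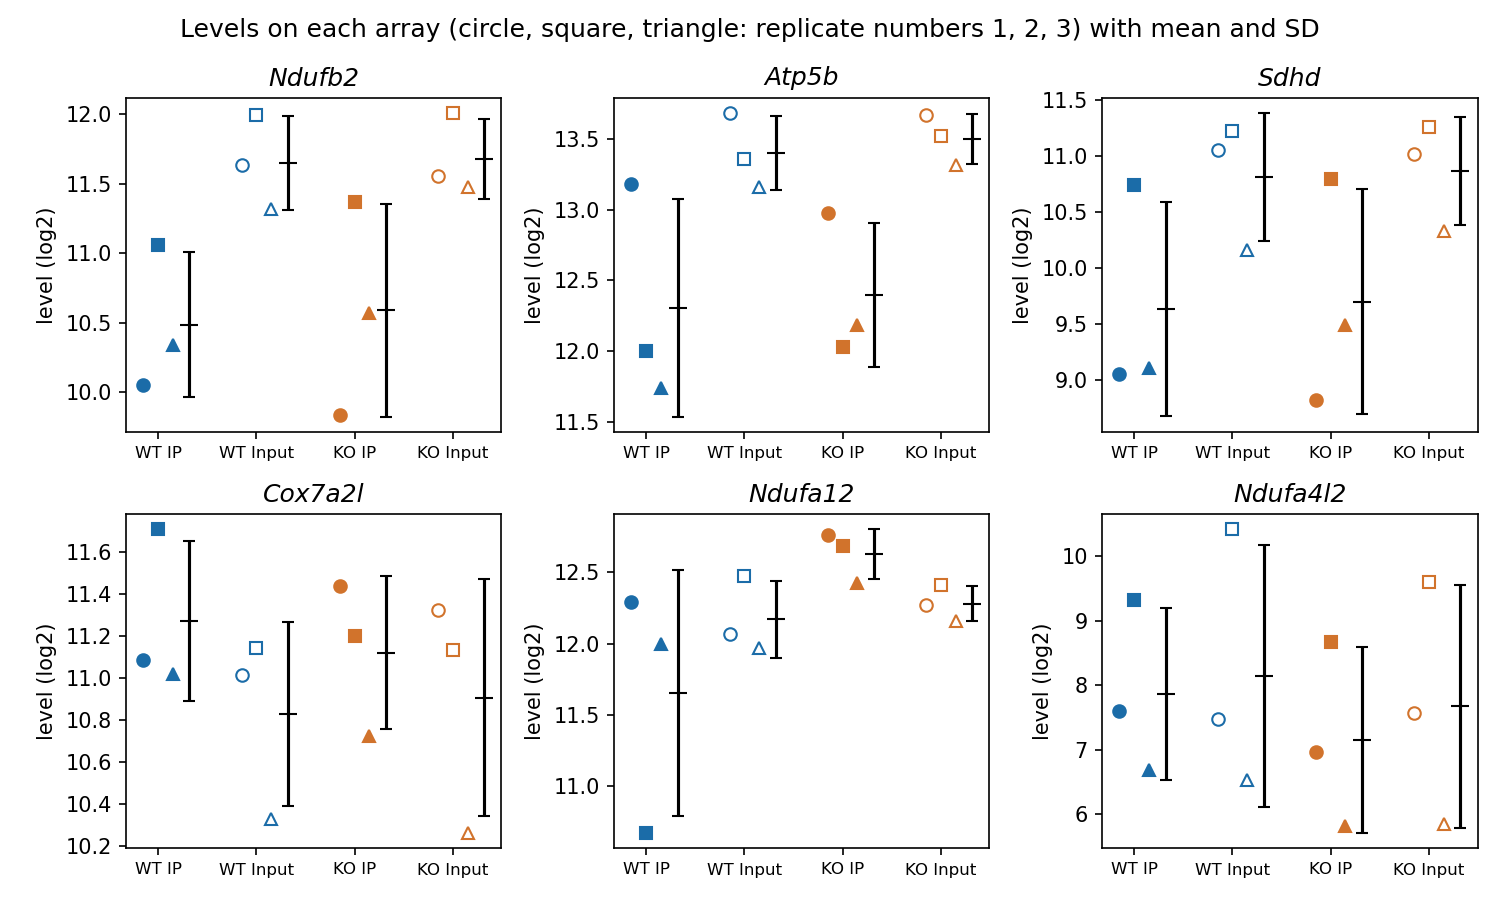
Level (log2) of 6 subunit genes on each of the 12 arrays. Filled symbols are IP and open symbols Input, shapes mark replicate numbers 1 to 3, and bars give the mean and SD of 3 arrays. Ndufb2, Atp5b and Sdhd have lower IP means in both genotypes, Cox7a2l has higher ones, the second WT IP array of Ndufa12 (10.67) stands apart from its group, and Ndufa4l2 separates by replicate number.

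The size of the difference followed the replicate number, shared between genotypes. The same number gave the lowest IP minus Input in both genotypes for 50 of 67 subunit genes (74.6%), against 53.7% of all genes. It was number 1 for 39 subunit genes (58.2%), against 20.6% of all genes, number 2 for 9 and number 3 for 2. Sdhd differed by -2.00 in WT and -2.20 in KO in number 1, against -0.49 and -0.47 in number 2. Uqcr10 differed by -1.87 and -2.11 in number 1, against -0.25 and -0.09 in number 3.

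Atp5b and Uqcrc1 ran the other way, with their smallest differences in number 1. Atp5b differed by -0.50 in WT and -0.69 in KO in number 1, against -1.43 and -1.13 in number 3. Uqcrc1 differed by -0.46 and -0.49 in number 1, against -1.65 and -1.60 in number 2. What a number stands for besides a replicate is not given in the labels. The added poly-A control transcripts also differed by number. In the Inputs they averaged 5.05 (WT) and 5.04 (KO) in number 1, against 8.51 to 8.81 in numbers 2 and 3. In the IPs they averaged 10.87 (WT) and 11.03 (KO) in number 1, against 13.09 to 13.70 in numbers 2 and 3. The part of this in the subunit differences was not tested.

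**Figure D3:**
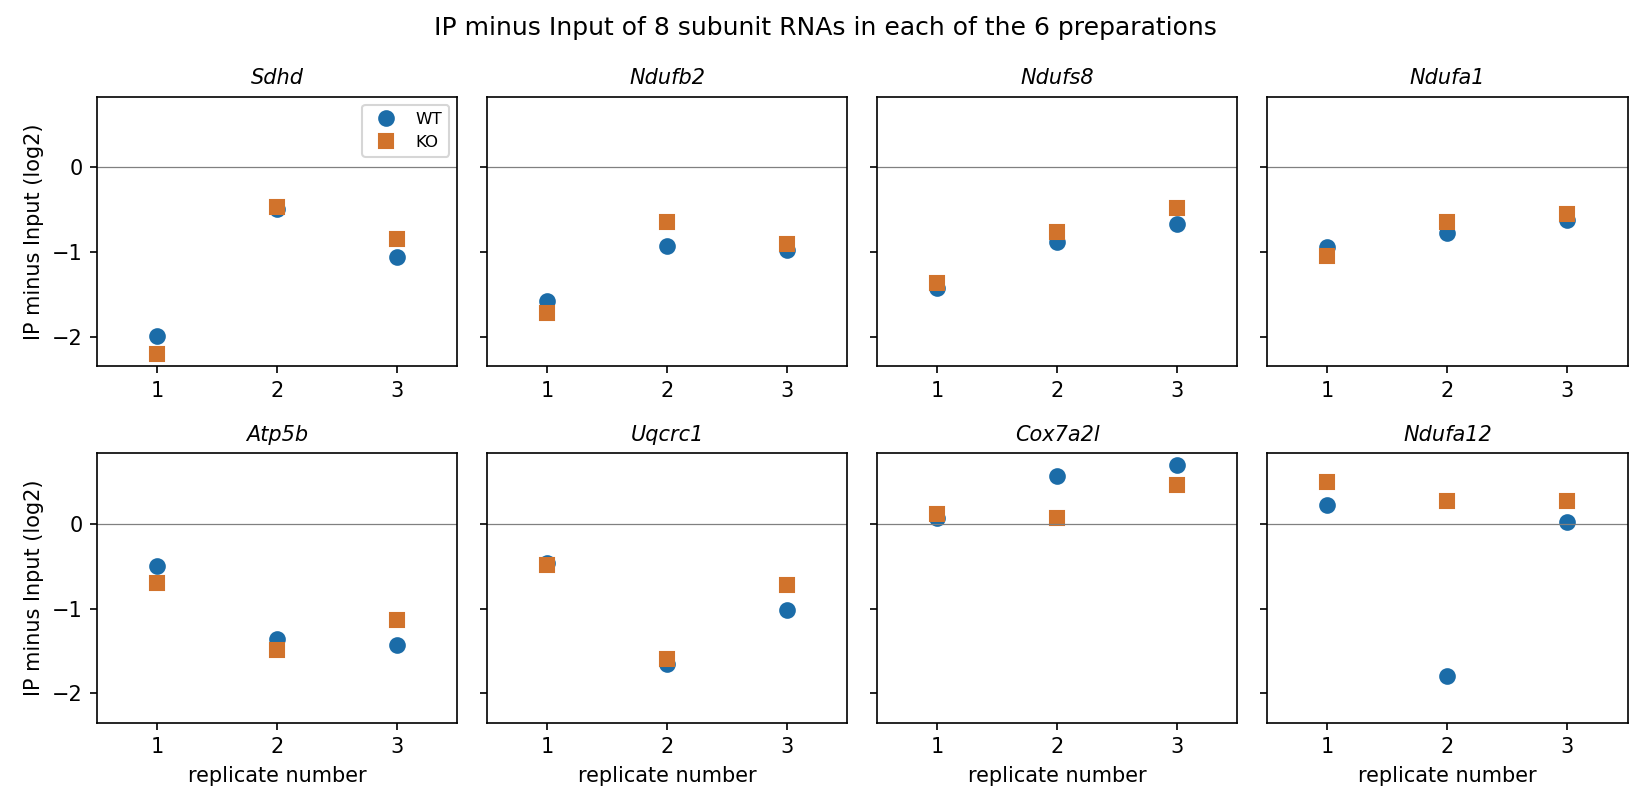
IP minus Input (log2) of 8 subunit genes in each of the 6 preparations, by replicate number, with WT as circles and KO as squares. WT and KO points of the same number lie close together for Sdhd, Ndufs8, Ndufa1 and Uqcrc1, and the second WT preparation of Ndufa12 (-1.80) stands apart from all others.

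The comparison that the negative control addresses set WT IP against KO IP. No subunit gene passed, either without a block, against 0.253% of all genes, or with the number as a block, against 2.45% of all genes. Of the 67 genes, 60 (89.6%) had a lower mean in WT IP than in KO IP, against 45.9% of all genes. The median was -0.20 (range -0.97 to 0.71), against 0.04 over all genes. At an unadjusted p under 0.05 without the block there was 1 gene, Ndufa12 (1.49%), against 5.39% of all genes, and its adjusted p was 0.753. By number, 35, 64 and 59 of 67 genes were lower in WT IP than in KO IP in numbers 1, 2 and 3, so number 1 did not show the shift.

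The change from Input to IP was then compared between genotypes, as WT IP minus WT Input less KO IP minus KO Input. None of the 67 genes passed an adjusted p of 0.05 in limma, against 0.0105% of all genes, and none had an unadjusted p under 0.05, against 1.98% of all genes. The median was -0.12, against 0.05 over all genes, and its values by number were 0.03, -0.17 and -0.19. Of the 67 genes, 54 (80.6%) were below 0, against 44.2% of all genes. The 95% intervals of single genes reached from -3.33 to 3.82 at their widest, with a median SE of 0.49, so differences of the size seen within a genotype were not resolved.

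Ndufa12, an accessory subunit of complex I, had the lowest value in both comparisons. It read 12.29, 10.67 and 11.99 in WT IP, against 12.76, 12.68 and 12.43 in KO IP, while the inputs read 12.27, 12.41 and 12.16 in KO and 12.06, 12.47 and 11.97 in WT. The IP groups did not overlap, and the second WT IP array was the lowest of the 12. The difference between the IPs was -0.97 ± 0.38 (adjusted p 0.753 without and 0.224 with the block). Without number 2 in the blocked fit it was -0.45 (adjusted p 0.511), and the difference of differences was -0.25, against -0.86 with all arrays. Ndufb7, an accessory subunit, read 10.45, 10.84 and 10.51 in WT IP, against 10.92, 11.21 and 10.95 in KO IP, without overlap (difference -0.43 ± 0.28, adjusted p 1). Ndufs5, another accessory subunit, read 10.02, 10.85 and 10.22 in WT IP, against 10.35, 11.68 and 10.81 in KO IP, with overlap (difference -0.58 ± 0.39, adjusted p 1).

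On the other side of 0, Ndufa4l2 differed by 0.71 between WT IP and KO IP, Cox8b by 0.62 and Cox8c by 0.59, and none of the 3 passed. Ndufa4l2 read 7.59, 9.32 and 6.68 in WT IP, against 6.97, 8.67 and 5.81 in KO IP. WT was the higher within each number, while the groups overlapped because the numbers lay far apart (adjusted p 1 without and 0.275 with the block). Its inputs ran the same way in numbers 2 and 3, as described with the inputs.

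**Figure D4:**
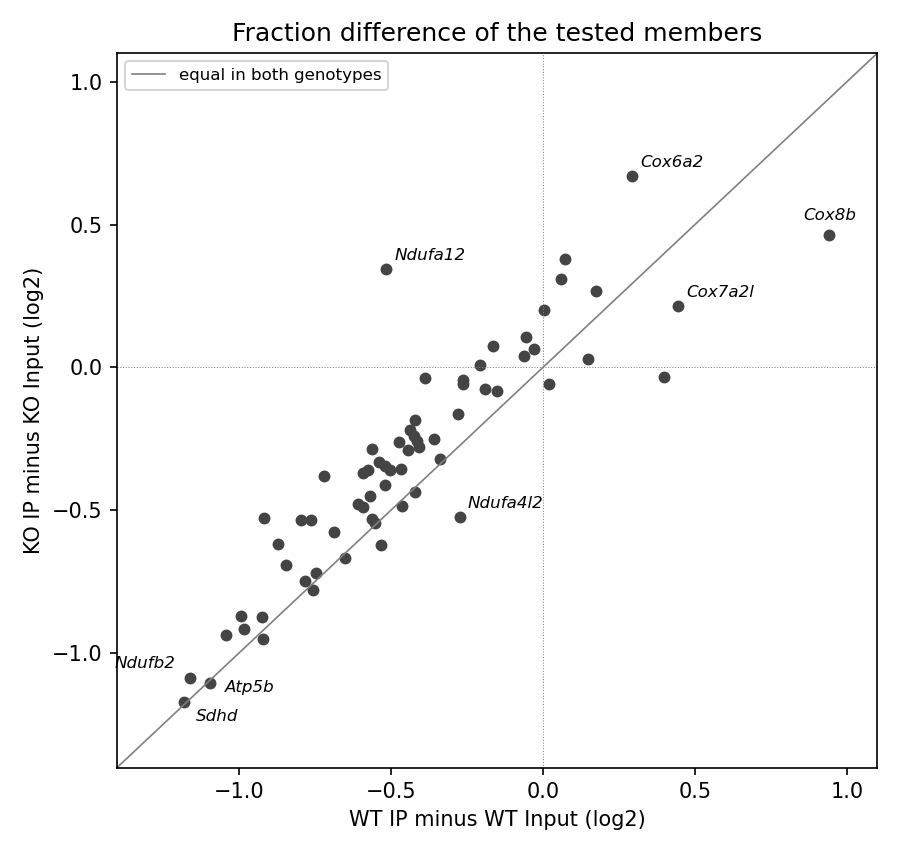
KO IP minus KO Input against WT IP minus WT Input (log2, means of 3 preparations) for the 67 tested subunit genes, with the line of equal values. Sdhd, Ndufb2 and Atp5b lie at the low end near the line, Cox8b at 0.94 in WT, and Ndufa12 farthest above the line.

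The inputs show the total RNA of the cells with and without Cnot6l. No subunit gene had an unadjusted p under 0.05 for KO Input against WT Input, against 0.0527% of all genes, and the smallest adjusted p was 1. The differences were small: the median was 0.07 (range -0.47 to 0.23), against 0.02 over all genes. A higher mean in KO was seen for 50 of 67 genes, against 53.9% of all genes. All 11 genes of complex V, 6 of complex III and 5 core subunits of complex I had a higher KO mean, with medians of 0.12, 0.09 and 0.12. The medians by number were 0.03, 0.06 and 0.09. In bulk RNA, fewer hepatocytes and less of an mRNA per hepatocyte cannot be told apart.

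The largest difference towards KO was that of Atp5o (0.23 ± 0.50), and the smallest p among genes higher in KO belonged to Atp5k, Ndufs8 and Cox5b, at 0.19, 0.20 and 0.17 with SEs of 0.32, 0.37 and 0.27. Atp5k read 12.93, 12.91 and 12.06 in KO Input, against 12.64, 12.65 and 12.05 in WT Input, and Cox5b read 12.37, 12.43 and 11.91 in KO Input, against 12.10, 12.31 and 11.80 in WT Input. KO was the higher within each number for both genes, and the groups overlapped.

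Ndufa4l2, a paralog of Ndufa4 that is induced by hypoxia, had the lowest value. It read 7.57, 9.60 and 5.84 in KO Input, against 7.48, 10.42 and 6.52 in WT Input, with number 2 high and number 3 low in both genotypes. The genotypes overlapped, and the difference of -0.47 was smaller than the spread between numbers. This held for the whole set: inputs of the same number differed between genotypes by a median of 0.121, against 0.404 between numbers within a genotype, and the spread between numbers was the larger in 67 of 67 genes. In the IPs these medians were 0.258 and 0.470, and the spread between numbers was the larger in 53 of 67.

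**Figure D5:**
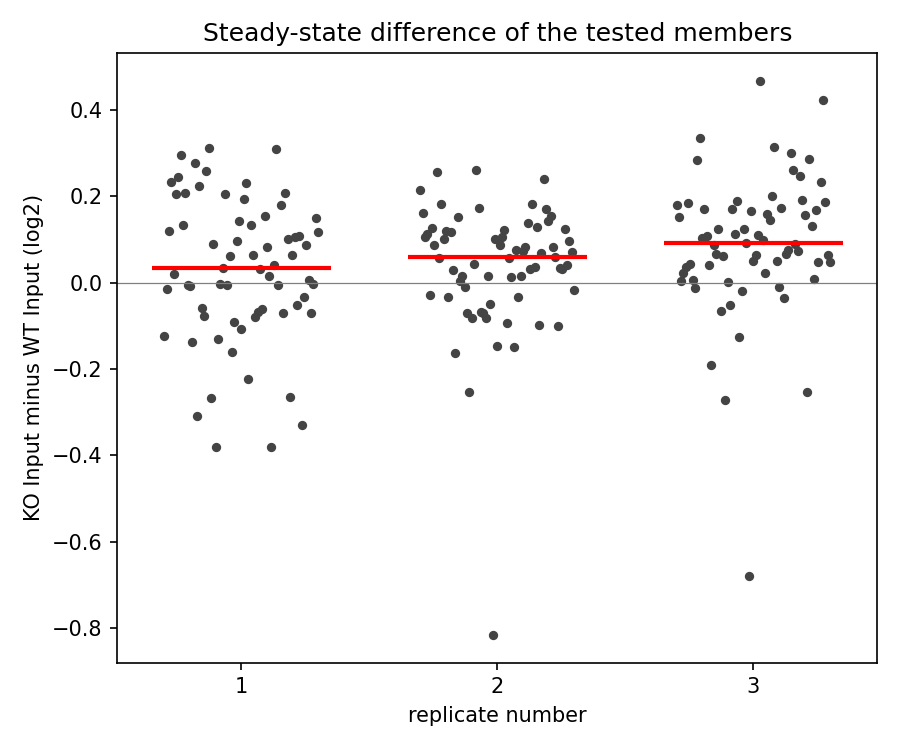
KO Input minus WT Input (log2) of the 67 tested subunit genes within each replicate number. Each point is 1 gene and the red bars mark the medians of 0.03, 0.06 and 0.09. The lowest points of numbers 2 and 3 (-0.82 and -0.68) are Ndufa4l2.

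Other mitochondrial genes were set beside the subunits, over both genotypes and with the preparation block, which called 19.7% of all genes lower. Of 36 assembly factors, 30 were lower in IP (median -0.28) and 9 were called lower (25.0%), among them Coa3, an early complex IV factor, at -0.96 and Acad9, a complex I factor, at -0.76. Of 16 genes of the tricarboxylic acid cycle, 11 were lower (median -0.40) and 5 were called (31.3%), among them Dlst, of the oxoglutarate dehydrogenase complex, at -1.06. Of 14 regulators of mitochondrial biogenesis, 8 were lower (median -0.05) and 2 were called (14.3%), Nrf1 and Pprc1, both at -0.63. Among 6 electron carriers and further subunits, 5 were lower (median -0.24) and 2 were called (33.3%), the electron transfer flavoprotein subunit Etfa at -1.03 and its dehydrogenase Etfdh at -0.69.

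Of 16 genes of mitochondrial import and carriers, 12 were lower (median -0.34) and 6 were called (37.5%). Tomm40, the channel of the outer membrane translocase, and Timm50, a receptor of the inner membrane translocase, differed by -2.10 and -1.05. These passed also without the block (adjusted p 0.0105 and 0.0154), which no subunit gene did. All 9 hepatocyte markers were lower in IP as well, with a median of -0.43, close to the subunit median of -0.42, and 4 were called with the block, Asgr1, Serpina1c, Apoa1 and Cyp2e1. Their summed level was 16.05 to 16.60 (log2) over the IPs, against 16.53 to 16.91 over the inputs. Cd68, a macrophage marker and the one Kupffer cell marker above the filter, differed by -1.09 (adjusted p 0.0276 without the block) and so was lower in IP as well. The summed level of the 9 Kupffer cell markers was 10.6 to 11.2 (log2) over the IPs, against 11.6 to 12.3 over the inputs, and the part of either list in the subunit differences was not tested.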

How the data were processed

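Messenger RNA levels were measured on 12 Affymetrix Mouse430_2 arrays in 4 groups of 3. By their range, the deposited values are log2 levels, with 1 value per gene-based probe set. The sources used here do not say how the authors corrected background, normalized and summarised these log2 values. Probe sets were named through the platform annotation. The members and lists were chosen with earlier results of these data known.

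Genes with a mean over the 12 arrays at or above the 40th percentile (5.57) were tested. The 4 group means were fitted in 1 model with limma 3.58.1 in R 4.3.3 (8 residual degrees of freedom), with two-sided p-values adjusted by Benjamini-Hochberg over 9496 genes and a threshold of 0.05. SEs are moderated. In the blocked fit, the block was the preparation in comparisons of IP with Input and in the difference of differences (4 residual degrees of freedom), and the replicate number in comparisons of genotypes (6). That an IP and an Input share a preparation is stated in the series text. After removal of group means, arrays of the same number in other groups correlated at 0.453 to 0.936 over 18 pairs, against -0.711 to 0.0685 for other numbers, so the numbers pair the samples. Genes given by array were the 5 lower and 3 higher with the smallest p for IP minus Input over both genotypes, the 3 of each direction for the other comparisons, the complex II genes and the tissue isoforms, and from other lists up to 2. Other genes were named after their values were seen. The fits were tested on simulated data. Arrays have no read depth, and their number limits the precision. Figures used Python 3.11.15 and matplotlib 3.10.9.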

Additional observations from a re-analysis of the deposited data

Results flagged for a closer look

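Among the 6 preparations, 2 values stood far from the rest of their set by the gap to the nearest neighbour divided by the whole range, for which the critical value with 6 values is 0.625. The IP minus Input of Ndufa12 in WT preparation 2 was -1.80 (log2), a gap of 0.795 of the range. The IP minus Input of Ndufb5 in WT preparation 1 was -1.29, a gap of 0.641 of the range. Chance marks about 1 in 20 such sets, and 27 genes were examined in this way.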

How the results depend on the processing

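With all 12 arrays, the medians of the 6 comparisons kept their sign under quantile normalization, the other filters, the blocks and fits of the compared groups only. The median of WT IP minus WT Input was -0.35 after quantile normalization, with or without the block. Over both genotypes 7 subunit genes were called with no level filter. Of these, 6 were lower (8.33%, against 3.04% of all genes) and 1 was higher, against 7.89% of all genes. The replicate number as a block within each fraction, which takes differences between numbers as given, called 42. Of these, 41 were lower (61.2%, against 29.2% of all genes) and 1 was higher, against 12.1% of all genes. The number called was 25 with the preparation block (37.3%, against 19.7% of all genes) and 10 with block and quantile normalization (14.9%, against 10.3%). It was 34 with block and the filter at the 80th percentile (54.0%, against 34.5%), and 5 with genotypes averaged per number (7.46%, against 7.76%). In the blocked fit it was 14 without number 1 (11 lower and 3 higher, against 13.6% and 3.93% of all genes). It was 0 without number 2 and 2 without number 3. The corresponding counts for WT alone were 4 with the block (5.97%, against 4.61% of all genes) and 32 with the number within fraction. Those 32 were 31 lower (46.3%, against 15.2% of all genes) and 1 higher, against 7.80% of all genes. The WT count was 17 with the stricter filter and block (27.0%, against 14.8%), 1 without number 1 (1.49%, against 1.53%) and 0 without number 2 or 3. For KO alone the count was 2 with the block (2.99%, against 5.28% of all genes) and 20 with the number within fraction (29.9%, against 17.8%). It was 7 with the stricter filter and block (11.1%, against 12.0%) and 0 when any 1 number was left out. Subunit genes lower in every preparation numbered 22 of 67 (32.8%) after quantile normalization, against 14.8% of all genes. Blocks combined with another setting, number averages and leaving out a number were chosen after seeing the data.

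Leaving out 1 array at a time gave medians of -0.66 to -0.37 for WT IP minus WT Input, -0.49 to -0.23 for KO IP minus KO Input, -0.50 to -0.33 over both genotypes, -0.31 to -0.10 for WT IP minus KO IP, -0.085 to 0.20 for KO Input minus WT Input and -0.27 to 0.028 for the difference of differences. It called 0 subunit genes in every comparison, except 2 over both genotypes without WT IP array 1, for which no share of all genes is given here.

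Some single genes changed sign, and none of these passed there. Over both genotypes Sdha was 0.070 after quantile normalization with or without the block. Cox7a2 was -0.034 to 0.075 without single arrays and -0.0076 and -0.050 in the blocked fit without numbers 2 and 3, where Cox8c was -0.081 and -0.053. Without single arrays, WT IP minus KO IP was -0.013 to 1.48 for Ndufa4l2 and -0.014 to 0.922 for Cox8c. KO Input minus WT Input was -1.43 to 0.67 for Ndufa4l2, -0.26 to 0.033 for Cox8b, -0.010 to 0.473 for Atp5k and -0.12 to 0.492 for Ndufs8. The difference of differences was -0.0068 to 0.796 for Cox8b, -0.17 to 0.769 for Cox8c and -0.021 to 0.552 for Cox7a2l. The cause was not tested. Array precision rests on 3 arrays a group.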
